A study of Homo sapiens with 8 samples.

Results

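The genes described here are 44 nuclear genes for subunits of the mitochondrial respiratory chain, picked by name from complexes I to V and cytochrome c. Of these, 42 were measured, among 18417 genes that had a probe set carrying exactly 1 gene symbol, and the brightest such probe set over the arrays stood for its gene. The measured genes were 20 of 20 for complex I, 3 of 4 for complex II, 5 of 6 for complex III, cytochrome c, 8 of 8 for complex IV and 5 of 5 for complex V. SDHB and UQCRFS1 had no such probe set and were not analysed here. NDUFA4, first named as a complex I subunit and now placed in complex IV under the symbol COXFA4, was counted with complex IV.

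The respiratory chain sits in the inner mitochondrial membrane. Complex I takes electrons from NADH and complex II from succinate, complex III passes them to the small carrier cytochrome c, and complex IV hands them to oxygen. Protons pumped along the way drive complex V, the ATP synthase. Most subunits are encoded in the nucleus, where the factors NRF-1, GABP of the ETS family, YY1 and the estrogen-related receptors are known to act at their promoters, and estrogen signalling is known to influence mitochondrial gene expression in breast cancer cells.

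T47D cells, a human breast cancer line of luminal type that carries the estrogen receptor, were studied in 4 groups of 2 arrays: 17β-HSD1 siRNA with estradiol (E2), 17β-HSD1 siRNA with vehicle, control siRNA with E2 and control siRNA with vehicle. All cells spent 2 days in medium stripped of steroids and were then transfected with 200 nM siRNA, either a mixture of 3 siRNAs that target 17β-HSD1 or a scrambled control. This enzyme, the product of HSD17B1, makes estradiol from estrone. After 48 h, 1 nM E2 or ethanol, the vehicle, was added for 2 days. The replicates, numbered 1 and 2, came from 2 independent culture experiments, and whole-transcript Affymetrix Human Gene 1.0 ST arrays were read for each. Values are log2 signals, changes are log2 differences with the standard error (SE) of limma's fit, and a gene was called at an adjusted p below 0.05. Signals of different genes come from different probes, so only changes, not levels, are set side by side.

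HSD17B1, the targeted gene, lay between 8.32 and 8.41 on the 4 arrays with 17β-HSD1 siRNA, against 8.56 to 9.35 on the 4 with control siRNA. With control siRNA it was 9.12 in E2 and 9.35 in vehicle for replicate 1, but 8.56 and 8.66 for replicate 2. The gap between the siRNAs was thus narrower in replicate 2. The averaged change was -0.56 ± 0.16 (limma adjusted p = 0.221), so the groups did not overlap but the test did not pass. As a rough check of the label, 10 of 10 luminal epithelial markers had a mean signal above that of the median gene, as did 1 of 5 basal markers (KRT14), 1 of 6 fibroblast markers (COL1A1), 0 of 5 immune markers and 0 of 5 endothelial markers. One array, 17β-HSD1 siRNA, vehicle replicate 1, stood apart. It correlated with the other arrays at 0.976 on average, where each of the other 7 averaged 0.984 to 0.988, and the SD of its values was 1.95, where theirs was 2.01 to 2.04. The averaged changes of most genes named are therefore given with and without this array.

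Promoter sequence is shown for the 5 genes whose arrays did not overlap between the conditions compared, in the averaged knockdown for NDUFS1 and NDUFA6 and in the averaged E2 response for NDUFS6, CYCS and ATP5PO. The sequences are RefSeq's, build GRCh38.p14, read 5′ to 3′ on the gene's own strand. Capitals mark a match on either strand to CCGGAAGT (ETS) in NDUFS1, to CCAAT in NDUFA6 and CYCS, and to GCGCANGCG (NRF-1) in NDUFS6 and ATP5PO. The NDUFS1 stretch is the 250 bases before the start of the gene (chr2:206159445-206159694, minus strand), with its match at positions -158 to -151. The others are 30 bases around a match: NDUFA6 at chr22:42090808-42090837 (minus), NDUFS6 at chr5:1801351-1801380 (plus), CYCS at chr7:25125377-25125406 (minus) and ATP5PO at chr21:33915808-33915837 (minus).
NDUFS1: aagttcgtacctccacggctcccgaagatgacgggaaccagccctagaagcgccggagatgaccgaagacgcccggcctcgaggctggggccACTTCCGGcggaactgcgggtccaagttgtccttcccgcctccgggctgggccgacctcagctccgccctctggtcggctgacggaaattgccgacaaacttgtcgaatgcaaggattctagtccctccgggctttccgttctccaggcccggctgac
NDUFA6: gttcctccttagCCAATgggaaaagacatt
NDUFS6: cagaagccgtGCGCATGCGttagcgctaag
CYCS: gcaggcATTGGgactggagCCAATgaggtg
ATP5PO: cgccaacgcgCGCGTGCGCccttgcgcgtt

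A window from 250 bases before to 50 after the start was held for 37 of the 44 genes. NRF-1's GCGCANGCG was found on either strand in 9 of them (24.3%), against 11% of 15843 protein-coding windows and 8.05% of all 27305. The genes with it were NDUFA8, NDUFA9 and NDUFS6 of complex I, SDHA and SDHD of complex II, UQCRC1 and UQCRFS1 of complex III, and ATP5F1C and ATP5PO of complex V. The ETS letters CCGGAAGT lay in 5 (13.5%, against 6.19% of protein-coding and 4.44% of all windows), those of NDUFS1, SDHD, UQCRQ, COX5B and COX8A. The YY1 letters AAGATGGCG also lay in 5 (13.5%, against 2.74% and 1.85%), those of NDUFA6, NDUFA9, NDUFS4, SDHB and UQCRC1. CCAAT was found in 8 (21.6%, against 36.4% and 35.7%).

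The full estrogen response element GGTCANNNTGACC was in none of the 37 windows, and in 0.0379% of protein-coding and 0.0659% of all windows. Its short arm GGTCA was in 22 (59.5%, against 35.8% and 37.7%). The estrogen-related receptor letters TCAAGGTCA, which contain GGTCA and so count in both searches, were in the SDHD window alone (2.7%, against 0.24% and 0.359%). These matches describe the letters in these windows and were not tested against the array values.

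No respiratory chain gene passed the test for the E2 response averaged over the siRNAs: 0 of 42 were called by limma, and 4 had an unadjusted p below 0.05, as did 8.90% of all genes. Among all probe sets tested, 1.32% were called higher and 0.226% lower with E2. The averaged changes were small and mostly positive, with a median of 0.13 and 40 of 42 above 0, where the median over all genes was -0.02 and 41.9% were above 0. In RNA from whole cultures, a change in RNA per cell and a change in the share of expressing cells cannot be told apart. The lean towards E2 rested largely on 1 array: without 17β-HSD1 siRNA, vehicle replicate 1, the median was 0.02 and 26 were above 0, beside a median of 0.01 over all genes. Of all 18417 genes, 9969 were above 0 without it. By complex, the medians with all 8 arrays were 0.11 for complex I, 0.01 for complex II, 0.09 for complex III, 0.11 for complex IV and 0.18 for complex V. Without that array they were 0.01, -0.05, 0.02, 0.03 and 0.13, in the same order.

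**Figure D1:**
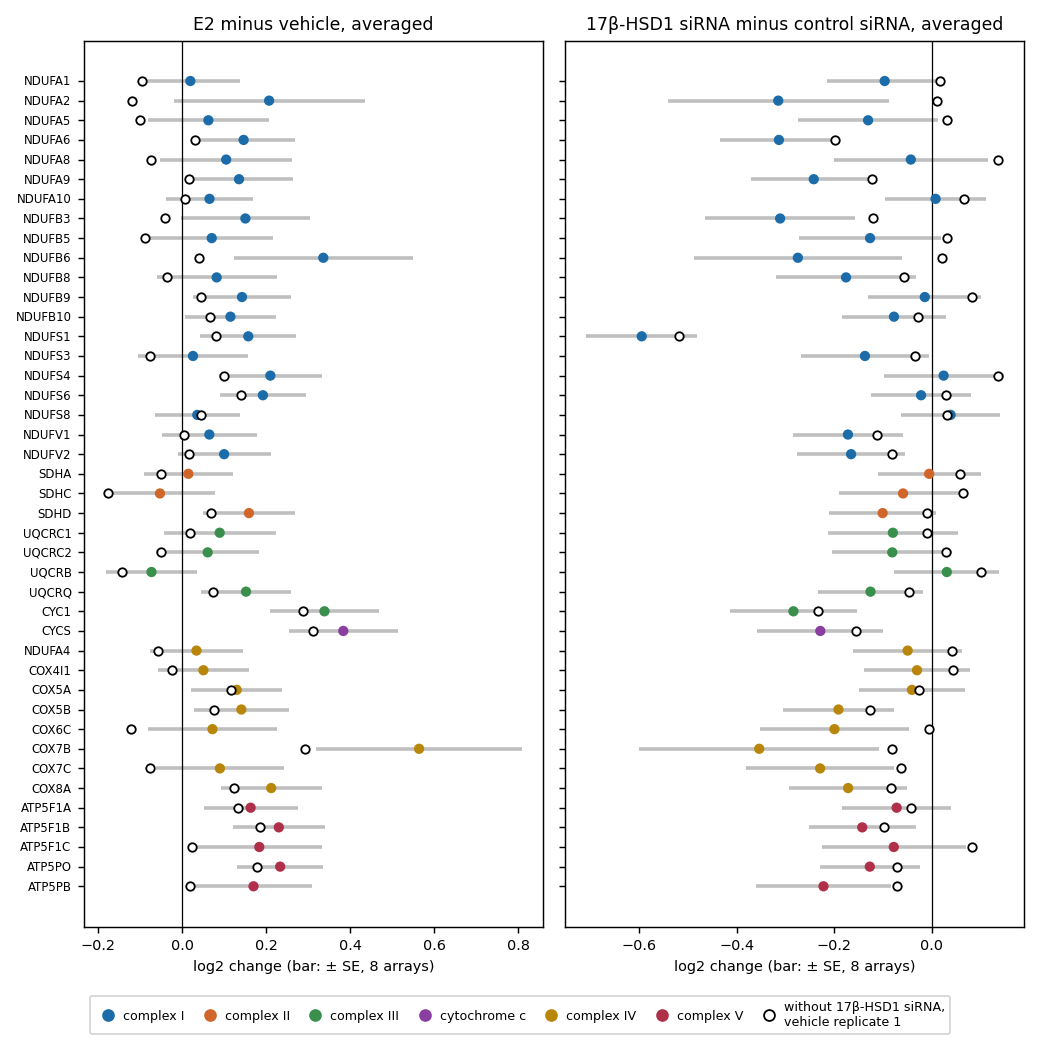
Averaged log2 changes of the 42 measured respiratory chain genes, E2 minus vehicle (left) and 17β-HSD1 siRNA minus control siRNA (right). Filled points with bars (± SE) use all 8 arrays and are coloured by complex, and open points leave out 17β-HSD1 siRNA, vehicle replicate 1; most open points lie closer to 0 than the filled ones, while NDUFS1 stays at -0.52 in the right panel.

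CYCS, the gene of cytochrome c, had the smallest p for E2. Its signal was 9.42 and 9.47 with 17β-HSD1 siRNA and E2, against 8.89 and 9.18 with 17β-HSD1 siRNA and vehicle. With control siRNA it was 9.41 and 9.89 in E2, against 9.22 and 9.37 in vehicle. All 4 E2 arrays were thus above all 4 vehicle arrays, although the lowest E2 array, at 9.41, was close to the highest vehicle array, at 9.37. The means were 9.55 ± 0.23 with E2 and 9.17 ± 0.20 with vehicle (SD, n = 4 each), and the averaged change was 0.38 ± 0.13 (limma adjusted p = 0.284). Without the array that stood apart it was 0.31 ± 0.13 (adjusted p = 0.400). RefSeq lists 45 pseudogenes of CYCS, whose transcripts its probes may not tell apart from its own.

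CYC1 encodes cytochrome c1, the heme subunit of complex III that hands electrons to cytochrome c. Its signal was 10.55 and 10.27 with 17β-HSD1 siRNA and E2, against 9.92 and 10.13 with 17β-HSD1 siRNA and vehicle. Under control siRNA CYC1 was 10.74 and 10.55 in E2, against 10.57 and 10.14 in vehicle. E2 was above vehicle in all 4 same-numbered pairs, but control siRNA vehicle replicate 1 lay above all but 1 of the E2 arrays, so the groups overlapped. The averaged change was 0.34 ± 0.13 (limma adjusted p = 0.405), and 0.29 ± 0.14 without the array that stood apart (adjusted p = 0.488).

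ATP5PO, which encodes the OSCP subunit that joins the head of the ATP synthase to its peripheral stalk, was also higher on each E2 array than on any vehicle array. Its signal was 10.98 on both arrays with 17β-HSD1 siRNA and E2, against 10.60 and 10.83 with 17β-HSD1 siRNA and vehicle. Under control siRNA ATP5PO was 11.04 and 11.11 in E2, against 10.88 and 10.86 in vehicle. The lowest E2 and the highest vehicle array were 10.98 and 10.88. The means were 11.03 ± 0.061 with E2 and 10.79 ± 0.13 with vehicle (SD, n = 4 each). The averaged change was 0.23 ± 0.10 (limma adjusted p = 0.528), and 0.18 ± 0.08 without the array that stood apart (adjusted p = 0.477).

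NDUFS6, a small zinc-binding accessory subunit of complex I, was the other gene with no overlap. Its signal was 10.48 and 10.43 with 17β-HSD1 siRNA and E2, against 10.10 and 10.30 with 17β-HSD1 siRNA and vehicle. With control siRNA it was 10.34 and 10.48 in E2, against 10.29 and 10.28 in vehicle. The gap between the lowest E2 and the highest vehicle array was narrow. The averaged change was 0.19 ± 0.10 (limma adjusted p = 0.715), and 0.14 ± 0.09 without the array that stood apart (adjusted p = 0.629).

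Every E2 array was above every vehicle array for 3 of 42 genes, the NDUFS6, CYCS and ATP5PO just given, where 2.99% of all genes met that rule. E2 was above vehicle in all 4 same-numbered pairs for 9 of 42, where 11.3% of all genes did. These were NDUFA9 and NDUFS6 of complex I, UQCRQ and CYC1 of complex III, CYCS, COX5A and COX7B of complex IV, and ATP5F1B and ATP5PO of complex V.

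COX7B, a small complex IV subunit, had the largest averaged change with E2, 0.56 ± 0.25 (limma adjusted p = 0.523), and the widest spread. Its signal was 7.13 and 8.16 with 17β-HSD1 siRNA and E2, against 6.54 and 7.62 with 17β-HSD1 siRNA and vehicle. Under control siRNA COX7B was 7.93 and 8.07 in E2, against 7.34 and 7.54 in vehicle. The E2 arrays with 17β-HSD1 siRNA differed from each other by more than the averaged change. Without the array that stood apart the change was 0.29 ± 0.22 (adjusted p = 0.725), 0.03 ± 0.35 with 17β-HSD1 siRNA and 0.56 ± 0.28 with control siRNA.

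In complex II, SDHD, one of the membrane anchors, had the smallest p, with an averaged E2 change of 0.16 ± 0.11 (limma adjusted p = 0.872). Its signal was 10.32 and 10.28 with 17β-HSD1 siRNA and E2, against 9.95 and 10.31 with 17β-HSD1 siRNA and vehicle. Under control siRNA SDHD was 10.38 and 10.39 in E2, against 10.26 and 10.22 in vehicle. The E2 change of SDHD was 0.07 without the array that stood apart (adjusted p = 0.851). SDHA, the flavoprotein that oxidises succinate, averaged 0.01 ± 0.11, and -0.05 without that array. SDHC, the other anchor, averaged -0.05 ± 0.13, and -0.18 without it.

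A dimmer probe set was also present for SDHD, SDHC, NDUFV2 and NDUFS4. On 17β-HSD1 siRNA, vehicle replicate 1 those of SDHC and NDUFV2 were at their lowest, at 7.82 where the other arrays read 8.23 to 8.65, and at 8.50 where they read 8.93 to 9.09. Those of SDHD and NDUFS4 were not, at 9.42 where the other arrays read 9.06 to 9.46, and at 6.07 where they read 5.88 to 6.28. The dimmer probe set of SDHC gave an averaged E2 change of 0.07, opposite in sign to that of the brighter one. For SDHD, NDUFV2 and NDUFS4 the dimmer probe sets gave 0.10, 0.12 and 0.14 with E2. With 17β-HSD1 siRNA those of SDHD, SDHC and NDUFS4 gave -0.04, -0.13 and 0.02, against -0.10, -0.06 and 0.02 for the brighter ones. RefSeq lists 7 pseudogenes of SDHD, 5 of SDHC and 1 of NDUFV2, whose transcripts their probes may not tell apart from their own. The platform's probe set numbers mostly follow chromosome order. SDHD lies on chromosome 11, but its brighter set is numbered beside that of ATP5PB on chromosome 1. SDHC lies on chromosome 1, but its brighter set is numbered between those of COX4I1 on chromosome 16 and ATP5F1A on chromosome 18. By this order these brighter sets probably read other places in the genome. The values given for SDHD and SDHC, and the complex II medians, may thus not be those of the genes. Positions were not checked further, so the brighter NDUFV2 set may not read its gene either.

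**Figure D2:**
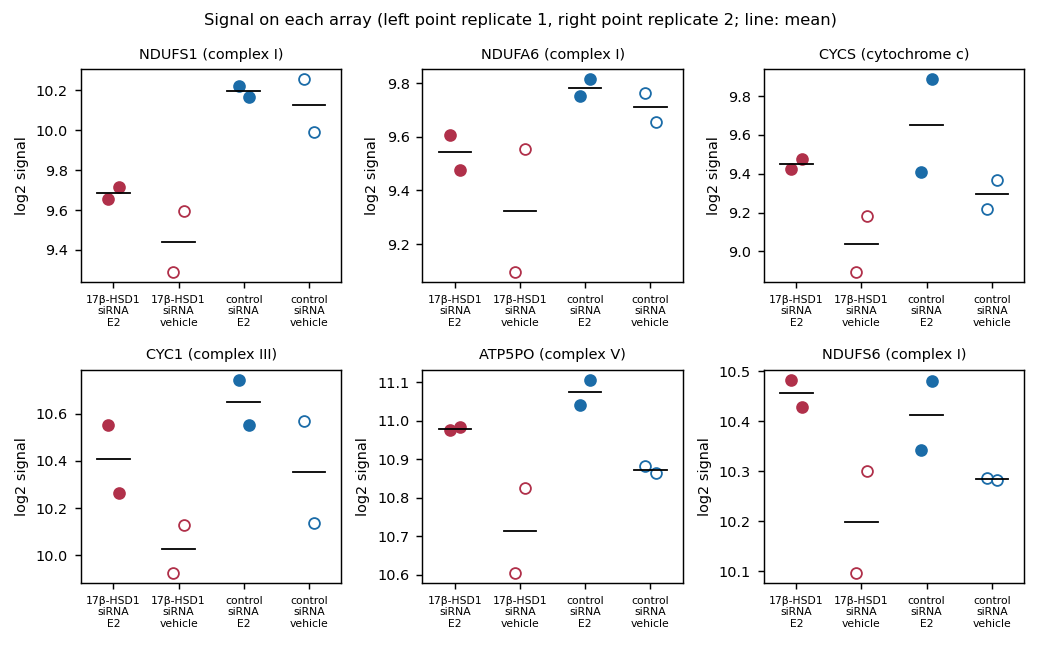
Log2 signal of NDUFS1, NDUFA6, CYCS, CYC1, ATP5PO and NDUFS6 on each of the 8 arrays, with the 4 groups along the horizontal axis. Points are single arrays, replicate 1 left and replicate 2 right, and lines are group means; for NDUFS1 both 17β-HSD1 siRNA groups, 9.29 to 9.72, lie below both control siRNA groups, 9.99 to 10.26.

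Averaged over the media, 17β-HSD1 siRNA gave no called respiratory chain gene either: 0 of 42 by limma, with 2 at an unadjusted p below 0.05, NDUFS1 and NDUFA6, where 9.17% of all genes had one. Among all probe sets tested, 0.24% were called higher and 0.217% lower with 17β-HSD1 siRNA. The median change was -0.13 and 38 of 42 were below 0, where the median over all genes was 0.01 and 54.3% were above 0. Without 17β-HSD1 siRNA, vehicle replicate 1 the median was -0.02 and 24 were below 0, beside a median of -0.02 over all genes. Of all 18417 genes, 10631 were below 0 without it. By complex, the medians with all 8 arrays were -0.13 for complex I, -0.06 for complex II, -0.08 for complex III, -0.18 for complex IV and -0.13 for complex V. Without that array they were 0.01, 0.06, -0.01, -0.04 and -0.07, in the same order.

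NDUFS1 encodes the largest core subunit of complex I, which carries iron-sulphur clusters on the path of electrons from NADH. Its signal was 9.66 and 9.72 with 17β-HSD1 siRNA and E2, against 10.22 and 10.17 with control siRNA and E2. In vehicle it was 9.29 and 9.60 with 17β-HSD1 siRNA, against 10.26 and 9.99 with control siRNA. All 4 arrays with 17β-HSD1 siRNA were below all 4 with control siRNA, in E2 and in vehicle. The means were 9.56 ± 0.19 with 17β-HSD1 siRNA and 10.16 ± 0.12 with control siRNA (SD, n = 4 each). The averaged change of -0.59 ± 0.11 is a fold of 0.662, with a limma adjusted p of 0.0546, just outside the threshold.

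The NDUFS1 difference was seen in each medium, at -0.51 ± 0.16 in E2 (limma adjusted p = 0.690) and -0.68 ± 0.16 in vehicle (adjusted p = 0.332). Without the array that stood apart it was -0.52 ± 0.10 on average (adjusted p = 0.0963) and -0.53 ± 0.15 in vehicle. With the replicate number as a block the averaged change was the same and the adjusted p was 0.0296, which is past the threshold. Its E2 change was 0.16 ± 0.11 (adjusted p = 0.888), and 0.08 without that array. RefSeq lists 0 pseudogenes of NDUFS1.

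NDUFA6, an accessory subunit of complex I, was the other gene whose arrays did not overlap between the siRNAs. Its signal was 9.61 and 9.48 with 17β-HSD1 siRNA and E2, against 9.75 and 9.82 with control siRNA and E2. In vehicle it was 9.09 and 9.55 with 17β-HSD1 siRNA, against 9.76 and 9.65 with control siRNA. The averaged change was -0.31 ± 0.12 (limma adjusted p = 0.411), and -0.20 ± 0.09 without the array that stood apart (adjusted p = 0.492). On 17β-HSD1 siRNA, vehicle replicate 1 NDUFA6 was 0.57 below its mean over the other 7 arrays.

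Every 17β-HSD1 siRNA array was below every control siRNA array for 2 of 42 genes, NDUFA6 and NDUFS1, where 2.17% of all genes met that rule. The siRNA was below its control in all 4 same-numbered pairs for 6 of 42, where 9.44% of all genes did. These were NDUFA6, NDUFS1 and NDUFV2 of complex I, UQCRQ and CYC1 of complex III, and ATP5PO of complex V. In the vehicle pair of replicate 1, which holds the array that stood apart, 1 of 42 was above 0, beside 59.1% of all genes. As for E2, that made both rules easier to meet, and the counts cannot be read as an excess over all genes. NDUFV2, which holds the iron-sulphur cluster beside the NADH site, averaged -0.17 ± 0.11, and -0.08 without the array that stood apart. Its dimmer probe set gave -0.14 with all 8 arrays. UQCRQ, a small complex III subunit, averaged -0.13 ± 0.11, and -0.05 without that array.

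In the other complexes the smallest p for 17β-HSD1 siRNA belonged to SDHD, CYC1, CYCS, COX5B and ATP5PB. CYC1 averaged -0.28 ± 0.13 (limma adjusted p = 0.533) and CYCS -0.23 ± 0.13 (adjusted p = 0.677), from the array values given above. Both were nearer 0, at -0.23 and -0.16, without the array that stood apart. The change of SDHD, on its brighter probe set, was -0.10 ± 0.11 (adjusted p = 0.913), and -0.01 without that array. Its dimmer probe set gave -0.04 with all 8 arrays. COX5B, a zinc-binding subunit of complex IV, had signals of 8.25 and 8.24 with 17β-HSD1 siRNA and E2, against 8.47 and 8.20 with control siRNA and E2. In vehicle COX5B was 7.88 and 8.14 with 17β-HSD1 siRNA, against 8.37 and 8.23 with control siRNA. Its arrays overlapped in E2, and the averaged change was -0.19 ± 0.11 (adjusted p = 0.707), and -0.13 without that array (adjusted p = 0.722).

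ATP5PB, subunit b of the ATP synthase stalk, had signals of 9.04 and 9.12 with 17β-HSD1 siRNA and E2, against 9.08 and 9.33 with control siRNA and E2. In vehicle ATP5PB was 8.51 and 9.12 with 17β-HSD1 siRNA, against 9.19 and 9.08 with control siRNA. Only the 8.51 lay clearly outside the other arrays. The averaged change was -0.22 ± 0.14 (limma adjusted p = 0.737), and -0.07 ± 0.10 without that array. RefSeq lists 8 pseudogenes each of COX5B and ATP5PB.

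The array that stood apart was low for nearly the whole chain. On 17β-HSD1 siRNA, vehicle replicate 1, 41 of 42 genes were below their mean over the other 7 arrays and 39 of 42 were at their lowest, with a median deviation of -0.39. The exceptions to the lowest rank were NDUFS8, at 0.03 above the mean of the others, UQCRB at -0.12 and COX5A at -0.13. The deviation was largest for NDUFA2 (-1.19), NDUFB6 (-1.16) and COX7B (-1.15), all small accessory subunits, followed by COX6C (-0.73) and NDUFB3 (-0.71). NDUFA2 read 7.69 on that array and 8.65 to 9.06 on the other 7.

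**Figure D3:**
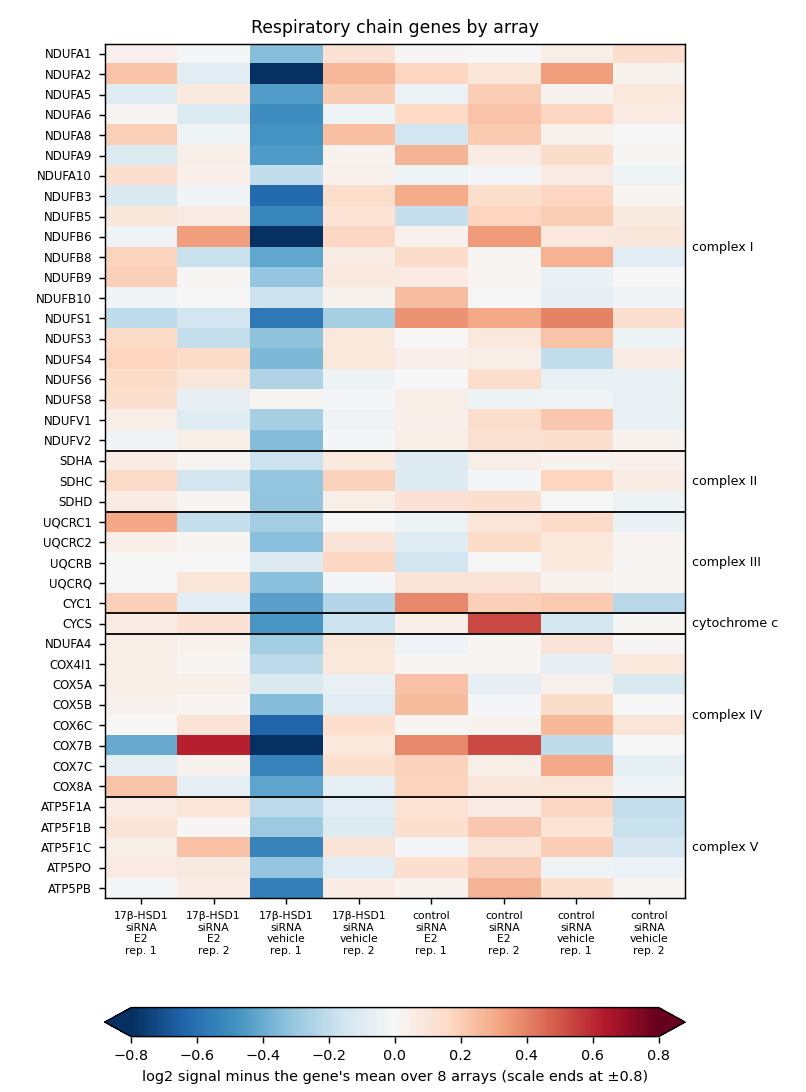
Log2 signal of each measured respiratory chain gene on each array, minus the gene's mean over the 8 arrays, from blue (below) through white to red (above). Rows are genes grouped by complex and columns are the 8 arrays; the column of 17β-HSD1 siRNA, vehicle replicate 1 is blue for all but NDUFS8, and the NDUFS1 row is blue in all 4 columns of 17β-HSD1 siRNA.

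The shift on that array was shared by every complex. The mean deviation from the 8-array mean was -0.43 for complex I, -0.27 for complex II, -0.30 for complex III, -0.47 for cytochrome c, -0.44 for complex IV and -0.38 for complex V. Over all 42 genes it was -0.40 there, 0.04 on replicate 2 of the same group, 0.05 and 0.02 with 17β-HSD1 siRNA and E2, 0.08 and 0.12 with control siRNA and E2, and 0.10 and -0.01 with control siRNA and vehicle. The other 7 arrays thus lay within a narrow band. The median gap between replicates was 0.094 with 17β-HSD1 siRNA and E2, 0.36 with 17β-HSD1 siRNA and vehicle, 0.11 with control siRNA and E2 and 0.12 with control siRNA and vehicle.

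**Figure D4:**
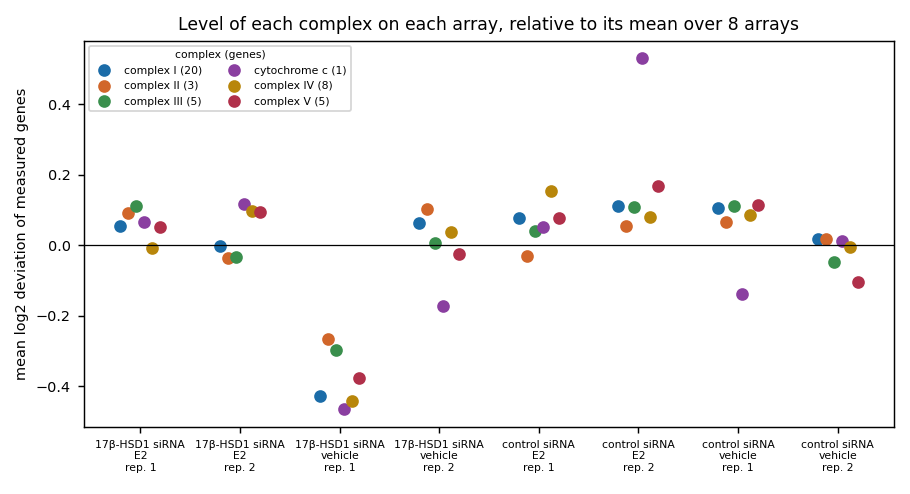
Mean log2 deviation of the measured genes of each complex from their 8-array mean, for each array along the horizontal axis. Points are complexes, with the number of genes in the legend; all 6 lie between -0.47 and -0.27 on 17β-HSD1 siRNA, vehicle replicate 1, and cytochrome c stands at 0.53 on control siRNA, E2 replicate 2.

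Brightness moved with this deviation over all genes. With the 18417 genes in 5 bins of equal size by mean signal, the median deviation on that array was 0.20, 0.22, 0.13, -0.04 and -0.19 from the dimmest to the brightest bin, and the share at their lowest there was 4.61%, 9.50%, 17.8%, 30.2% and 46.6%. The brightest bin held 34 of the 42 respiratory chain genes. Among 2737 genes with a mean signal between 8.99 and 10.4, the middle range of these genes, the median deviation was -0.18 and 45.3% were at their lowest. The respiratory chain genes had -0.39 and 92.9%. Other mitochondrial lists, described below, were low on that array too. Protein import and chaperones had a median deviation of -0.42 with 70.8% at their lowest, the mitochondrial ribosome -0.38 with 74.0%, and the citric acid cycle list -0.37 with 76.5%. Further chain subunits had -0.24 with 69.7%, while the dim tissue-restricted isoforms had 0.29 with 0%. The part of brightness or of RNA quality on this array in the results for the chain was not tested.

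**Figure D5:**
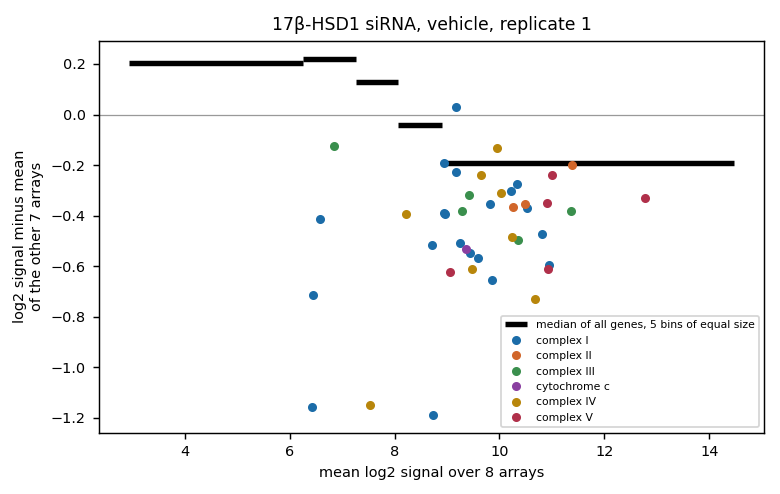
Deviation of 17β-HSD1 siRNA, vehicle replicate 1 from the mean of the other 7 arrays (vertical, log2) against mean log2 signal over 8 arrays (horizontal). Points are the 42 respiratory chain genes, and thick black lines are the medians of all genes in each of 5 bins of equal size by signal, from 0.20 in the dimmest to -0.19 in the brightest; most points lie below the line of their bin.

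Within single conditions the medians moved with the same array. With 17β-HSD1 siRNA, the median E2 change was 0.20 and 41 of 42 were above 0, beside 43.0% of all genes. Without replicate 1 in vehicle it was -0.01 and 20 were above 0. With control siRNA, which does not involve that array, the median was 0.05 and 29 were above 0, beside 47.6% of all genes. None was called by limma in either (0 of 42 each, with 1 and 0 at an unadjusted p below 0.05, beside 4.43% and 6.09% of all genes), where 0.269% of all probe sets were called with 17β-HSD1 siRNA and 0.0848% with control siRNA. The gene with an unadjusted p below 0.05 was CYCS, at 0.41 ± 0.18 with 17β-HSD1 siRNA, beside 0.36 ± 0.18 with control siRNA.

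For 17β-HSD1 siRNA against its control, the median change was -0.06 in E2, with 25 of 42 below 0, and -0.20 in vehicle, with 41 below 0. Of all genes, 49.2% in E2 and 55.1% in vehicle were above 0. Without the array that stood apart the vehicle median was 0.02, with 20 below 0. Limma called 0 of 42 in each, with 1 at an unadjusted p below 0.05 in E2 (NDUFS1) and 2 in vehicle (NDUFS1 and NDUFA6), and 0% of all probe sets in each. Of all genes, 4.53% in E2 and 5.22% in vehicle had an unadjusted p below 0.05. The E2 response with 17β-HSD1 siRNA minus that with control siRNA had a median of 0.15 and 40 of 42 above 0, beside 50.3% of all genes. Without that array it was -0.04, with 13 above 0. Limma called 0 of 42 for this difference, with 0 at an unadjusted p below 0.05 (0.592% of all genes), and 0% of all probe sets.

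Between same-numbered arrays the members leaned different ways. E2 minus vehicle with 17β-HSD1 siRNA had a median of 0.39 in replicate 1, with 42 of 42 above 0, and -0.03 in replicate 2, with 18 above 0. Of all genes, 44.6% and 49.7% were above 0 there. With control siRNA the median was -0.05 in replicate 1 (18 above 0) and 0.11 in replicate 2 (35 above 0), beside 51.2% and 44.3% of all genes. The siRNA against its control in vehicle had -0.47 in replicate 1 (1 above 0) and 0.05 in replicate 2 (32 above 0), beside 59.1% and 42.3%. In E2 it had 0.01 (22 above 0) and -0.06 (11 above 0), beside 54.2% and 43.8%. The medians of replicates 1 and 2 thus had opposite signs in all 4 comparisons, and for the siRNA in E2 both were near 0.

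Among the remaining complex I genes, the catalytic core members NDUFV1, which binds NADH, NDUFS3 and NDUFS8 had averaged E2 changes of 0.06 ± 0.11, 0.03 ± 0.13 and 0.04 ± 0.10. Their averaged changes with 17β-HSD1 siRNA were -0.17 ± 0.11, -0.14 ± 0.13 and 0.04 ± 0.10. Without the array that stood apart the E2 changes of NDUFV1, NDUFS3 and NDUFS8 were 0.01, -0.08 and 0.04, and those with 17β-HSD1 siRNA -0.11, -0.03 and 0.03. The accessory subunits ran from 0.02 for NDUFA1 to 0.34 for NDUFB6 with E2, and from -0.31 for NDUFA2 to 0.02 for NDUFS4 with 17β-HSD1 siRNA. Without that array they ran from -0.12 for NDUFA2 to 0.14 for NDUFS6 with E2, and from -0.20 for NDUFA6 to 0.14 for NDUFS4 with 17β-HSD1 siRNA. NDUFB6 averaged 0.34 ± 0.21 with E2, and 0.04 without it. NDUFA9, which lies near the site of ubiquinone reduction, averaged -0.24 ± 0.13 with 17β-HSD1 siRNA, and -0.12 without that array.

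In complex III, UQCRC1 and UQCRC2, the large core proteins on the matrix side, had averaged E2 changes of 0.09 ± 0.13 and 0.06 ± 0.12, and UQCRB, which binds near the quinone site, -0.07 ± 0.11. These were at 0.02, -0.05 and -0.14, in the same order, without the array that stood apart. In complex IV, the E2 changes other than that of COX7B ran from 0.03 for NDUFA4 to 0.21 for COX8A, and those with 17β-HSD1 siRNA from -0.23 for COX7C to -0.03 for COX4I1. Without that array the same genes ran from -0.12 for COX6C to 0.12 for COX8A with E2, and from -0.13 for COX5B to 0.04 for COX4I1 with 17β-HSD1 siRNA. COX6C, one of the subunits with most pseudogenes (18), averaged 0.07 ± 0.15 with E2 and -0.20 ± 0.15 with 17β-HSD1 siRNA, where it was -0.12 and -0.01 without that array. In complex V, the head subunits ATP5F1A, ATP5F1B, which carries the catalytic sites, and ATP5F1C had E2 changes of 0.16 ± 0.11, 0.23 ± 0.11 and 0.18 ± 0.15. Without it they were at 0.13, 0.18 and 0.02. All 5 complex V genes kept a positive E2 change without the array that stood apart, between 0.02 and 0.18.

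Lists of other genes of the same machinery and of related pathways were described in the same way, and they did not all lean alike. Of 33 further chain subunits, limma called 0 in either averaged comparison, with 3 at an unadjusted p below 0.05 for E2 and 3 for 17β-HSD1 siRNA. The counts at an unadjusted p given for this and the following lists stand beside 8.90% of all genes for E2 and 9.17% for 17β-HSD1 siRNA. Their median change was 0.10 with E2 and -0.12 with 17β-HSD1 siRNA, or 0.00 and -0.05 without the array that stood apart, on which 23 of the 33 were at their lowest. Without it, 17 of the 33 were above 0 for E2 and 23 below 0 for 17β-HSD1 siRNA. ATP5MK, a small subunit of the ATP synthase, had the smallest p for E2, at 0.53 ± 0.14 (adjusted p = 0.124, and 0.0494 with the replicate block), and 0.39 without the array that stood apart (adjusted p = 0.198). NDUFC1 of complex I had it for 17β-HSD1 siRNA, at -0.47 ± 0.12 (adjusted p = 0.162), and -0.35 without that array (adjusted p = 0.215). The 7 tissue-restricted isoforms had medians of -0.04 and 0.03, with 0 called by limma and 0 at an unadjusted p below 0.05 in either comparison, and 0 of the 7 were at their lowest on that array. Without that array the medians were 0.03 and -0.05. For 17β-HSD1 siRNA, 6 of the 7 were above 0 with all 8 arrays and 1 without it. These isoforms are dim, and on that array the dimmest bins of all genes had median deviations of 0.20, 0.22 and 0.13.

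Assembly factors, 40 genes, had medians of 0.05 with E2 and -0.10 with 17β-HSD1 siRNA, and 20 regulators of mitochondrial biogenesis had 0.09 and -0.14. Without the array that stood apart the medians of the assembly factors were -0.02, with 18 of 40 above 0, and -0.06, and those of the regulators 0.08 and -0.14. TFAM, which packages mitochondrial DNA and acts as a factor in its transcription, was at -0.57 ± 0.18 with 17β-HSD1 siRNA (limma adjusted p = 0.266), and -0.37 without that array. TMEM70, an assembly factor of the ATP synthase, was at -0.57 ± 0.14 (adjusted p = 0.133), and -0.45 without it. Limma called 0 genes of both lists in either averaged comparison, with 2 and 3 at an unadjusted p below 0.05 for E2 and 4 and 6 for 17β-HSD1 siRNA.

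The mitochondrial ribosome, 73 genes, had medians of 0.16 with E2 and -0.15 with 17β-HSD1 siRNA, and 0.09 and -0.07 without the array that stood apart. Without it, 55 of 73 were above 0 for E2 and 51 below 0 for 17β-HSD1 siRNA. Protein import and chaperones, 24 genes, had 0.17 and -0.18, and 0.10 and -0.10 without it, where 22 were above 0 for E2 and 20 below 0 for 17β-HSD1 siRNA. HSPD1, the mitochondrial chaperonin, was at 0.58 ± 0.13 with E2 (limma adjusted p = 0.0541, and 0.0241 with the replicate block), and 0.52 without that array (adjusted p = 0.131). MRPS35 of the small ribosomal subunit was at -0.62 ± 0.14 with 17β-HSD1 siRNA (adjusted p = 0.101), and -0.48 without it. Limma called 0 genes of both lists in either averaged comparison, with 8 and 4 at an unadjusted p below 0.05 for E2 and 10 and 4 for 17β-HSD1 siRNA.

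The 17 genes of the citric acid cycle and pyruvate dehydrogenase had medians of 0.06 with E2 and -0.18 with 17β-HSD1 siRNA, or -0.05 and -0.08 without the array that stood apart. PDHB, a pyruvate dehydrogenase subunit, was at 0.54 ± 0.15 with E2 (limma adjusted p = 0.136) and -0.50 ± 0.15 with 17β-HSD1 siRNA (adjusted p = 0.225), and at 0.38 and -0.33 without that array. The 18 genes of glycolysis, the cytosolic pathway, had 0.01 and -0.19, or -0.02 and -0.17 without it, with 17 below 0 for 17β-HSD1 siRNA and 16 without that array. PFKP, a phosphofructokinase, was at 0.60 ± 0.15 with E2 (adjusted p = 0.0904, and 0.0291 with the replicate block) and -0.55 ± 0.15 with 17β-HSD1 siRNA (adjusted p = 0.174), and at 0.62 and -0.57 without that array. Limma called 0 genes of both lists in either averaged comparison, with 2 and 3 at an unadjusted p below 0.05 for E2 and 3 and 6 for 17β-HSD1 siRNA. The 2 averaged comparisons use the same 8 arrays, and the array that stood apart enters them with opposite signs. A low value on it raises the E2 change and lowers that with 17β-HSD1 siRNA.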

How the data were processed

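The authors deposited 1 table of 33297 probe sets for 8 arrays. Its scale, log2, is read from the deposited values (2.42 to 15.2). The summarisation and normalization behind it is not given in the sources used here. Array medians were 7.25 to 7.37, and values were tested as deposited. Per the labels, RNA with an integrity number above 8 was used, with 0.2 µg for amplification and about 2.7 µg of cDNA on each array. Gene names come from the platform annotation and RefSeq (GRCh38.p14): 19460 had 1 symbol, 1754 several and 12083 none. The 21214 with a symbol were tested with limma 3.58.1 in R 4.3.3 (lmFit with a coefficient per group over all 8 arrays, contrasts, eBayes, Benjamini-Hochberg adjustment). The number of arrays, 2 per group, limits the precision: 4 residual degrees of freedom per probe set.

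The members and lists were chosen with earlier results of these data known. Named array by array were called genes and, per complex, the member with the smallest p in each averaged comparison. NDUFA6 was added after its values were seen. For other lists, the genes named are among the 2 with the smallest p. Of the 13 mitochondrially encoded genes 0 had a probe set with 1 symbol, and they were not analysed here. The script was tested on simulated data.

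The labels number the replicates 1 and 2, and for the block same-numbered arrays were taken to come from the same culture experiment. Deviations of same-numbered arrays correlated at 0.42, 0.31, 0.31 and 0.44 in 4 pairs of groups. For control siRNA with vehicle they correlated at 0.01 with 17β-HSD1 siRNA and E2, and at -0.20 with 17β-HSD1 siRNA and vehicle. The block is given where it changes a call. Alternatives were a dim filter, all probe sets, quantile normalization, a trended robust spread, the block, an additive model, the 4 arrays compared, means over probe sets and leaving out each array; 1 probe set per gene was chosen after seeing the data.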

Additional observations from a re-analysis of the deposited data

How the results depend on the processing

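Several alternatives, such as the replicate block and the additive model, change the spread or the adjustment and leave a gene's log2 change as it was. The genes named by the rule were also picked by a small p in these data. A count of their signs was therefore largely fixed in advance. Over the alternatives, 0 of 672 values of the genes named by the rule had the opposite sign, against 7 of 160 medians of single complexes. These 7 were the complex II median for E2 with quantile normalization (-0.06), without 17β-HSD1 siRNA, vehicle replicate 1 (-0.05) and without control siRNA, E2 replicate 2 (-0.02), the complex II median for 17β-HSD1 siRNA with quantile normalization (0.03), without its vehicle replicate 1 (0.06) and without its E2 replicate 2 (0.00), and the complex I median for 17β-HSD1 siRNA without its vehicle replicate 1 (0.01). The count of respiratory chain genes called for the averaged knockdown was 0, and 1 with the filter on dim probe sets, 1 with the replicate block, 1 with the additive model and 0 to 1 when single arrays were left out, the 1 being without 17β-HSD1 siRNA, vehicle replicate 2. That gene was NDUFS1 each time, with limma adjusted p of 0.0433, 0.0296, 0.0295 and 0.0423, and its adjusted p ran from 0.0295 to 0.272 over all alternatives. With the replicate block HSPD1 (adjusted p = 0.0241), PFKP (0.0291) and ATP5MK (0.0494) were also called for E2, and the block changed no other call of a gene named here. HSPD1 was further called with the dim filter (0.0479), quantile normalization (0.0457), the trended robust spread (0.0499), the additive model (0.0376) and without control siRNA, E2 replicate 1 (0.0341). Without 17β-HSD1 siRNA, vehicle replicate 2, ATP5MK (0.0346), NDUFAF4 (0.0276) and PDHB (0.0262) were called for E2, and MRPL30 (0.0475), MRPS35 (0.0423), NDUFC1 (0.0436) and PDHB (0.0475) for 17β-HSD1 siRNA. PFKP was called for E2 without control siRNA, vehicle replicate 1 (0.0127) and for 17β-HSD1 siRNA without control siRNA, vehicle replicate 2 (0.0273), and ALDOC for 17β-HSD1 siRNA without control siRNA, E2 replicate 2 (0.0341). Over the 42 genes, quantile normalization turned the sign of 4 for E2 and 10 for 17β-HSD1 siRNA, with medians of 0.09 and -0.06, and leaving out 17β-HSD1 siRNA, vehicle replicate 1 turned 14 in each. Leaving out single arrays, the median over the 42 genes ran from 0.02 to 0.23 for E2 and from -0.23 to -0.02 for 17β-HSD1 siRNA. The change of HSD17B1 ran from -0.73 to -0.38. Where a group kept 1 array, its spread was taken from the other groups. The cause of these differences was not tested.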
